A study of Rattus norvegicus with 8 samples.

Results

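A set of peptide genes that mark the suprachiasmatic nucleus and other hypothalamic cell groups were followed in the hypothalamus of lactating rats. The 10 genes are Vip, Grp, Nmb, Nts, Gal, Penk, Tac1, Adcyap1, Cck and Bdnf, out of 26269 gene names on the array. They were found by name among the non-control probes of the scanner files, where 12 probes carry one of these names. Gal and Tac1 have 2 probes each. The data come from 8 Wistar dams sampled at postpartum day 7. The labels give the agent as control for 4 of them and as TCDD for the other 4, and each dam has 1 one-colour Agilent array. TCDD is 2,3,7,8-tetrachlorodibenzo-p-dioxin, a dioxin that binds the aryl hydrocarbon receptor. The labels state neither its dose, route and time nor what the control dams received.

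Neuropeptides are cut out of larger precursor proteins by prohormone convertases, which cleave mostly at pairs of basic residues. They are stored in dense-core granules and act on G protein-coupled receptors. In the suprachiasmatic nucleus, the brain's master clock, VIP neurons of the ventral core receive retinal input and, with GRP, keep the clock cells in step, and PACAP, the product of Adcyap1, is released there by retinal fibres. The same genes also work elsewhere in the hypothalamus: galanin, neurotensin and the enkephalins are made in several nuclei that control feeding, prolactin release and maternal behaviour. BDNF is a neurotrophin and not a neuropeptide, but it is stored and released from granules as well.

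The probes that lie in the coding part of 4 precursors show what was measured. They are given here because they hold pairs of basic codons, where precursors of this kind are mostly cut, although not every such pair is a cut site. Each is written 5′ to 3′, with capitals on runs of lysine or arginine codons in the precursor's reading frame, which was set from knowledge of these precursors and holds no stop codon in the probe.
Nts: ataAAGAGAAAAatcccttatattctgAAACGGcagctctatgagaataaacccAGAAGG
Penk: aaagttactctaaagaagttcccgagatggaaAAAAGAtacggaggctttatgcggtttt
Tac1: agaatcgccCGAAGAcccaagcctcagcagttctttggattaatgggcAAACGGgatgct
Adcyap1: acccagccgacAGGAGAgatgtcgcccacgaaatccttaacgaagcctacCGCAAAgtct
The Nts probe, A_44_P1030165 (rn4, chr7:40474898-40474957), has 3 such runs: the first ends in the first residue of neuromedin N, the second separates neuromedin N from neurotensin, and the third lies inside neurotensin. In the Tac1 probe A_64_P009996 (rn4, chr4:32651286-32651345) the first run ends in the first residue of substance P and the second follows that peptide. The Penk probe A_42_P749184 (rn4, chr5:17509637-17509696) has 1 run, just before an enkephalin sequence, and the Adcyap1 probe A_44_P522701 has 2. The array therefore reads the precursor mRNA of each gene and not the cut peptide.

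The other probes, named with their rn4 position from the array design, are A_64_P096924 for Vip (chr1:36369494-36369553), A_44_P202201 for Grp (chr18:62176219-62176278) and A_64_P109232 for Nmb (chr1:137097467-137097526). Gal has A_42_P614175 (chr1:205936430-205936489) and A_64_P091940 (chr1:205937849-205937908), and the brighter Tac1 probe is A_64_P009999 (chr4:32657551-32657610). Cck has A_64_P120679 (chr8:126492642-126492700), and Bdnf has A_44_P437896. Exon and UTR positions are not given, since no annotation of that build was used here.

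All 12 probes were well above background on 8 of 8 arrays, and none was saturated, so every gene has a measured level in each dam. Values are log2 of the probe's processed signal minus the log2 75th percentile of the array's probes, so that 0 lies at that percentile, and they are compared between dams and never between genes. That percentile ran from 474 on the array of control dam 1 to 699 on that of TCDD dam 3. The 2 dimmest arrays were those of control dam 1 and TCDD dam 1 (474 and 511). All control arrays lie on 1 slide and all TCDD arrays on the other, so slide and exposure cannot be told apart. Per-array counts of cells do not exist for tissue RNA: fewer cells of a type and less RNA per cell cannot be told apart in any value below. The labels do not say how the dams were bred or paired, and p-values measure the spread between these samples.

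None of the 10 genes passed the test of a difference between TCDD and control dams. At an adjusted p of 0.05 limma called 0 of 10, against 0.0181% of the 16574 genes tested (3 genes, all higher in TCDD dams). At an unadjusted p of 0.05 it called 0 of 10 as well, against 11.0% of all genes (1823). That count was 2 of 10 without TCDD dam 1 (Adcyap1 and Bdnf), where 1919 of the 16574 genes were called. The groups did not overlap for 0 of 10 genes and for 7.28% of all genes, and at that share 0 of 10 is no departure from the other genes. The log2 fold change was below 0 for 8 genes and above 0 for 2, with a median of -0.12, against -0.01 over all genes tested. Over all genes, 46.2% were above 0.

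**Figure D1:**
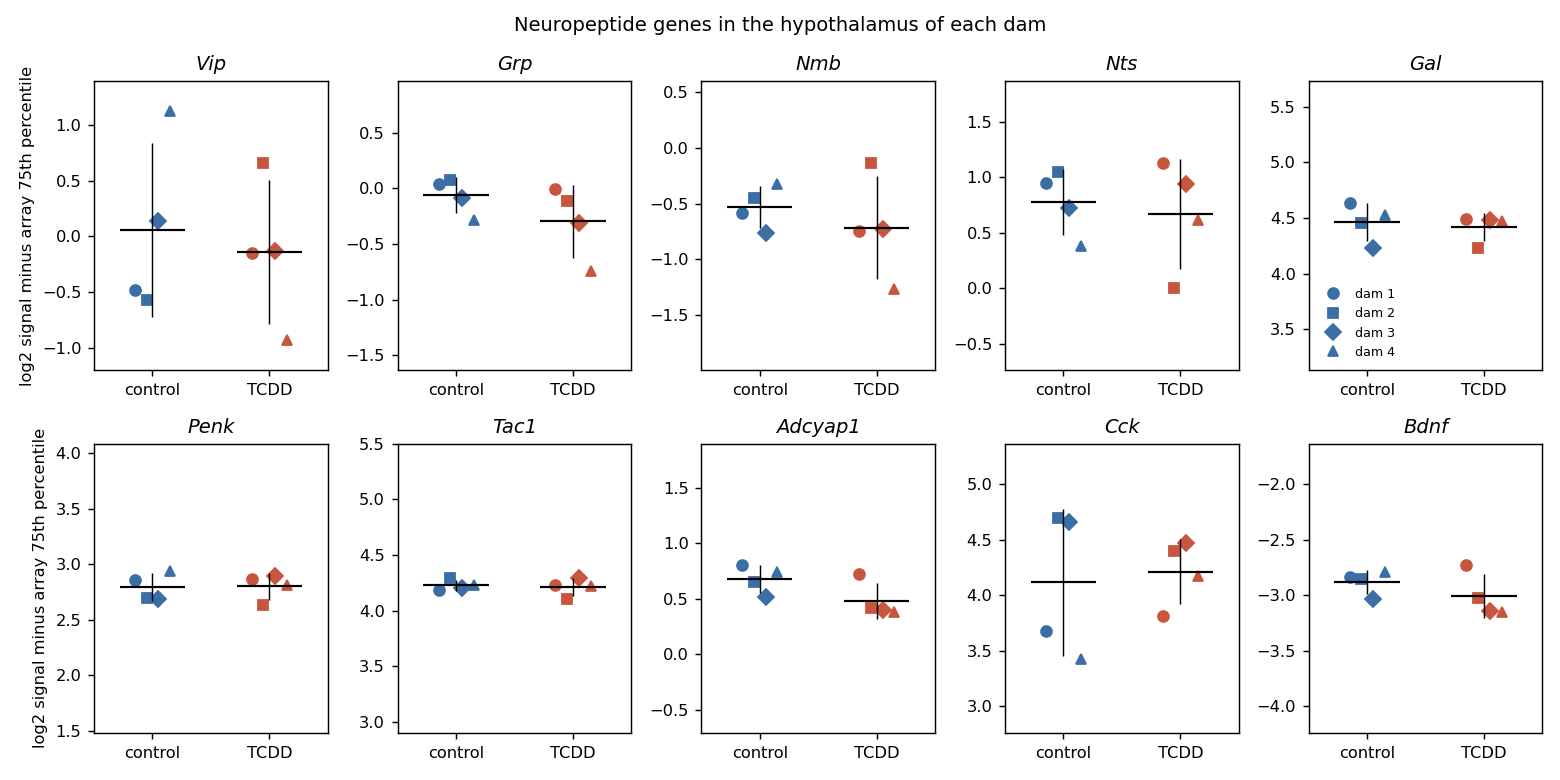
Level of each of the 10 genes in each dam (log2 signal minus the array's 75th percentile, y axis), for the 4 control (blue) and 4 TCDD (red) dams; the marker's shape gives the dam's number, horizontal lines are group means, vertical lines are 1 SD, and every panel spans the same number of log2 units. Vip spreads widely within both groups and Cck mainly among the control dams, Tac1 and Penk lie in a narrow band, and the groups overlap in every panel.

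Vip, the signal by which core neurons of the suprachiasmatic nucleus synchronise the clock, varied most. Its values were -0.48, -0.57, 0.14 and 1.13 in control dams 1 to 4 and -0.15, 0.66, -0.13 and -0.93 in TCDD dams 1 to 4. Control dam 4 and TCDD dam 2 were high and TCDD dam 4 was low, and the lowest and highest dams lay 2.06 log2 units apart. The group means were 0.06 ± 0.78 and -0.14 ± 0.65 (SD, n = 4 each). The log2 fold change came to -0.20 (SE 0.44, 95% interval -1.20 to 0.80, limma adjusted p = 0.918), and it turned to 0.16 without control dam 4 and to 0.07 without TCDD dam 4.

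Grp, the bombesin-like peptide of light-responsive core neurons, was 0.04, 0.08, -0.09 and -0.28 in control dams and -0.01, -0.12, -0.31 and -0.75 in TCDD dams. TCDD dam 4 was the lowest of the 8. On the log2 scale the fold change was -0.23 (SE 0.16, 95% interval -0.60 to 0.14, limma adjusted p = 0.667), and it was -0.08 without TCDD dam 4. Nmb, the second bombesin-like peptide, was -0.59, -0.45, -0.76 and -0.33 in control dams and -0.74, -0.13, -0.73 and -1.26 in TCDD dams. TCDD dams 2 and 4 were the highest and the lowest of all 8, so the TCDD group enclosed the control group. Its log2 fold change was -0.19 (SE 0.22, 95% interval -0.68 to 0.31, limma adjusted p = 0.816), and it was -0.38 without TCDD dam 2, -0.12 without control dam 4 and -0.004 without TCDD dam 4.

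Adcyap1, the PACAP precursor, came closest to a difference among the 10. Control dams had 0.81, 0.65, 0.52 and 0.74, and TCDD dams had 0.72, 0.41, 0.40 and 0.38. TCDD dams 2, 3 and 4 lay below all control dams, and TCDD dam 1 lay among them. The log2 fold change was -0.20 (SE 0.10, 95% interval -0.42 to 0.02), with an unadjusted p of 0.069 and a limma adjusted p of 0.510. Without TCDD dam 1 it was -0.28 (limma adjusted p = 0.283). Bdnf, which signals through the receptor TrkB, was dim: control dams had -2.84, -2.86, -3.04 and -2.79, and TCDD dams had -2.73, -3.02, -3.14 and -3.15. As with Adcyap1, TCDD dam 1 was high in its group and TCDD dams 3 and 4 were the lowest of all. Its log2 fold change was -0.13 (SE 0.10, 95% interval -0.37 to 0.11, limma adjusted p = 0.718), and it was -0.22 without TCDD dam 1, -0.09 without TCDD dam 3 and -0.08 without TCDD dam 4.

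Nts, the precursor of neurotensin and neuromedin N, was 0.95, 1.04, 0.72 and 0.38 in control dams and 1.13, 0.004, 0.94 and 0.61 in TCDD dams. TCDD dam 2 stood lowest and control dam 4 was next. On the log2 scale the fold change was -0.10 (SE 0.25, 95% interval -0.67 to 0.47, limma adjusted p = 0.922), and it turned to 0.12 without TCDD dam 2. Cck, whose octapeptide acts as a satiety signal and which is also abundant in cortex and thalamus, was 3.67, 4.69, 4.66 and 3.43 in control dams and 3.81, 4.40, 4.47 and 4.17 in TCDD dams. Control dams 1 and 4 and TCDD dam 1 were low, and the other 5 dams were higher. Its log2 fold change was 0.10 (SE 0.31, 95% interval -0.61 to 0.81, limma adjusted p = 0.945), and it turned to -0.05 without control dam 1 and to -0.13 without control dam 4.

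For Gal, Penk and Tac1 the control and TCDD means lay within 0.05 log2 units of each other. Gal, which encodes galanin, a peptide of feeding and prolactin control, was 4.63, 4.46, 4.23 and 4.52 in control dams and 4.49, 4.23, 4.48 and 4.48 in TCDD dams on its brighter probe. The log2 fold change was -0.04 (SE 0.10, 95% interval -0.27 to 0.18, limma adjusted p = 0.922), and the second Gal probe gave 0.004. The 2 Gal probes followed each other over the 8 arrays (r = 0.94). Penk, the enkephalin precursor, was 2.86, 2.69, 2.68 and 2.94 in control dams and 2.87, 2.63, 2.89 and 2.81 in TCDD dams. Control dam 4 was the highest and TCDD dam 2 the lowest. Its log2 fold change was 0.01 (SE 0.08, 95% interval -0.18 to 0.20, limma adjusted p = 0.988). Tac1, the precursor of substance P and neurokinin A, was 4.18, 4.30, 4.20 and 4.23 in control dams and 4.23, 4.10, 4.29 and 4.22 in TCDD dams, all within 0.19 log2 units. Its log2 fold change was -0.02 (SE 0.06, 95% interval -0.15 to 0.11, limma adjusted p = 0.952), and its second probe, the one printed above, gave -0.11 and followed the first with r = 0.67.

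**Figure D2:**
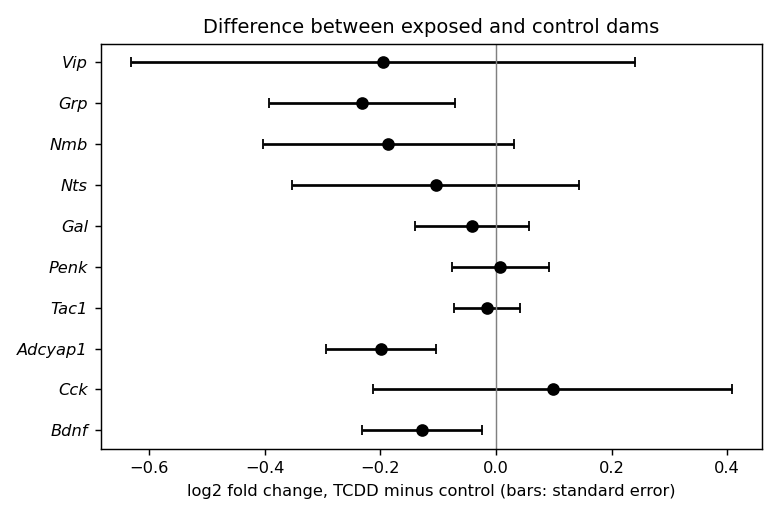
Log2 fold change of each gene, TCDD minus control (x axis, n = 4 dams per group), with bars of 1 standard error from limma. Vip has the widest bar (0.44) and Tac1 the narrowest (0.06), and 8 of the 10 points lie below 0.

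The genes differed in how much dams of the same group varied. This is a description, since the genes were chosen with earlier results of these data known. The within-group SD of log2 signal was 0.72 for Vip, above 98.4% of the genes tested, 0.51 for Cck (96.6%), 0.41 for Nts (94.3%) and 0.35 for Nmb (92.2%). The median over all genes was 0.12. Penk had 0.12 (50.6%) and Tac1 0.07 (14.3%). Grp, Bdnf, Gal and Adcyap1 lay between, from 60.4% to 85.1%. Bdnf, Gal and Penk have a probe with 10 spots on each array, and the SD between single spots was at most 0.13, 0.05 and 0.08. A dam's value is the mean of its spots, so the spot error in that value is smaller than these SDs. The within-group SDs of the values between dams were 0.16, 0.15 and 0.12. Under the other background corrections and scalings Vip stayed between 98.4% and 99.2% and Cck between 96.6% and 98.8%, while Tac1 reached 70.4% with the normexp background correction. The low rank of Tac1 is that of its brighter probe. The dimmer probe had an SD of 0.08 in control and 0.14 in TCDD dams, and the mean of its probes lay at 26.1%.

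**Figure D3:**
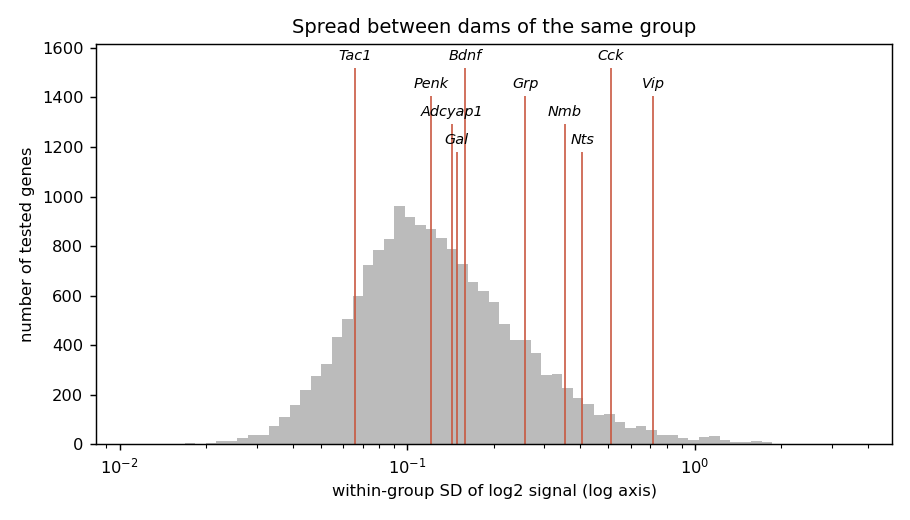
Distribution of the within-group SD of log2 signal over the 16574 genes tested (grey, log x axis), with the 10 neuropeptide genes marked by red lines. Vip, Cck, Nts and Nmb lie in the right tail and Tac1 on the left side, whereas Penk is at the middle.

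Across the 8 arrays, Adcyap1 and Bdnf rose and fell together most closely among the 45 pairs of these genes. Pearson's r was 0.92 (exact permutation p = 0.0058, adjusted over the 45 pairs 0.262) and Spearman's rho was 0.88 (exact permutation p = 0.0072, adjusted 0.326), over n = 8 arrays. The relation was present in both groups, with r = 0.86 over the 4 control dams and 0.97 over the 4 TCDD dams, and it was 0.95 without the 2 dams farthest from the median of Adcyap1. Adcyap1 was highest in control dam 1 (0.81) and Bdnf in TCDD dam 1 (-2.73), the dams of the 2 dimmest arrays. The part of array brightness in this relation was not tested. No pair passed the adjusted threshold of 0.05 in either measure. One of the 45 pairs had an absolute r of at least 0.8, which is 2.22%, against 2.62% of all 165730 pairs of one of these genes and another tested gene.

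The next 4 pairs were weaker, and 3 of them rested on a few dams. Gal and Penk had r = 0.80 (exact permutation p = 0.013, adjusted 0.303) and rho = 0.81 (p = 0.022, adjusted 0.327), and r fell to 0.37 without control dam 3 and TCDD dam 2. Vip and Nmb had r = 0.72 (exact permutation p = 0.045, adjusted 0.420) and rho = 0.52 (p = 0.197, adjusted 0.632), and r fell to 0.40 without control dam 4 and TCDD dam 2. These 2 dams had the highest Vip of all. Nts and Tac1 had r = 0.71 (exact permutation p = 0.053, adjusted 0.420) and rho = 0.43 (p = 0.299, adjusted 0.842), and r fell to 0.40 without the same 2 dams. Penk and Cck ran in opposite directions, with r = -0.74 (exact permutation p = 0.043, adjusted 0.420) and rho = -0.60 (p = 0.132, adjusted 0.632), and r was -0.72 without control dam 3 and TCDD dam 2. Without control dam 1, Adcyap1 with Bdnf (r = 0.96) and Gal with Penk (r = 0.83) passed the adjusted threshold, both with an adjusted p of 0.040 by the exact permutation test.

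**Figure D4:**
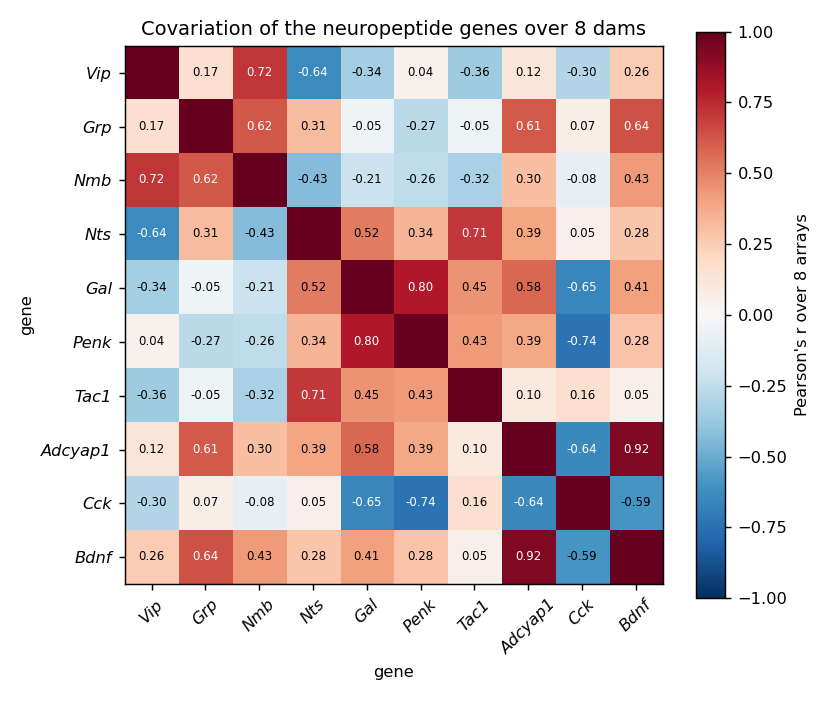
Pearson's r between every pair of the 10 genes over the 8 arrays (colour scale from -1 to 1, value printed in each cell). Adcyap1 with Bdnf (0.92) and Gal with Penk (0.80) are the highest cells, and Penk with Cck (-0.74) is the lowest.

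A hypothalamic dissection can carry more or less of the neighbouring tissue, so the genes were set beside markers of regions. Each marker list was scored as the mean log2 level of its measured genes, those with a probe that was well above background on every array of a group, and 90 relations of a gene with a list were computed. Cck followed the thalamus markers most closely. The score of 7 measured thalamus markers was -1.33, -0.68, -0.86 and -1.40 in control dams and -1.16, -0.88, -0.66 and -0.89 in TCDD dams, and the 3 dams of lowest Cck were also the 3 of lowest score. Pearson's r was 0.94 (exact permutation p = 0.00097, adjusted over the 90 relations 0.087) and rho was 0.93 (p = 0.0022, adjusted 0.201), with n = 8. It was 0.98 over the control dams, 0.93 over the TCDD dams and 0.84 without control dams 1 and 4.

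Of the 7 single thalamus markers, 6 followed Cck as well. Tcf7l2, a transcription factor of thalamic relay neurons, had r = 0.96 with Cck, Prkcd 0.91, Lef1 0.91, Slitrk6 0.85, Lhx9 0.81 and Adarb1 0.71, whereas Rora had -0.05. The hypothalamus identity genes as a list had r = -0.13 with Cck, and their members ran both ways, from Nkx2-1 (r = -0.89) to Oxt (r = 0.64). The thalamus marker Gbx2 did not pass the filter and Synpo2 was not found on the array by name. With 4 other scalings or background corrections the adjusted p of Cck with the thalamus score fell below 0.05, as described with the processing alternatives. Whether the amount of thalamus in the sample sets the level of Cck was not tested.

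Vip went with the mean of the hypothalamus identity genes (r = 0.88, exact permutation p = 0.0037, adjusted 0.108; rho = 0.83, p = 0.015, adjusted 0.327). Of the 12 measured members, 7 had an r above 0 with Vip and 5 below 0. Agrp, the hunger peptide of the arcuate nucleus, had r = 0.94 with Vip, Pomc had 0.71, and Crh, the stress hormone of the paraventricular nucleus, had -0.86. Without control dam 4 and TCDD dam 2 the r of Vip with the list was 0.63. The adjusted p of this relation, too, fell below 0.05 with the same 4 alternatives. The suprachiasmatic nucleus markers as a group had r = 0.64 with Vip and -0.23 without those 2 dams, so that relation rests on those 2 dams.

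Nts followed the striatum markers (r = 0.89, exact permutation p = 0.0048, adjusted 0.108; rho = 0.81, p = 0.022, adjusted 0.327), and r was 0.59 without control dam 4 and TCDD dam 2. The score of the 8 measured striatum markers moved by little, from 0.17 in TCDD dam 2 to 0.30 in control dam 1, and single markers did not run one way: Pde10a had r = 0.74 with Nts and Ppp1r1b had -0.90. Drd1a and Gpr6, also of that list, were well above background on 0 arrays and did not enter the score. Nts also ran against the 3 measured anterior pituitary markers Cga, Tshb and Lhb (r = -0.79, exact permutation p = 0.020, adjusted 0.339; rho = -0.69, p = 0.069, adjusted 0.666). The score of these 3 ran from -3.82 to 2.59 in control dams and from -1.78 to 2.72 in TCDD dams. It was carried by Cga (SD 3.71 in control and 3.58 in TCDD dams) and Tshb (3.73 and 2.54), and Lhb varied less than these (0.51 and 0.37). Each of the 3 ran against Nts, with r = -0.79 for Cga, -0.75 for Tshb and -0.85 for Lhb. Prl and Gh1, the defining hormones of the anterior pituitary, were well above background on 4 of 8 arrays each and so did not pass the filter, and Fshb, Pou1f1 and Gnrhr were above it on 0. The score therefore does not show how much anterior pituitary a sample held, and which part of the pituitary Cga and Tshb came from was not tested. Nts ran against the red blood cell genes (r = -0.71, exact permutation p = 0.048, adjusted 0.477; rho = -0.81, p = 0.022, adjusted 0.327) and the hypothalamus identity genes (r = -0.72, exact permutation p = 0.042, adjusted 0.477; rho = -0.81, p = 0.022, adjusted 0.327) as well. Without control dam 4 and TCDD dam 2 the r of Nts was -0.63 with the pituitary markers, -0.36 with the red blood cell genes and -0.50 with the hypothalamus identity genes. The part of pituitary tissue or blood in the level of Nts was not tested.

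Nmb ran against the cortex and pallium markers (r = -0.90, exact permutation p = 0.0039, adjusted 0.108; rho = -0.81, p = 0.022, adjusted 0.327), and r was -0.70 without TCDD dams 2 and 4. Only 7 of the 10 genes of that list were measured, and the cortical genes Slc17a7 and Tbr1 were not among them. No relation among the 90 passed an adjusted p of 0.05, and 9 had an unadjusted p under 0.05. The smallest adjusted p was the 0.087 of Cck with the thalamus markers.

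**Figure D5:**
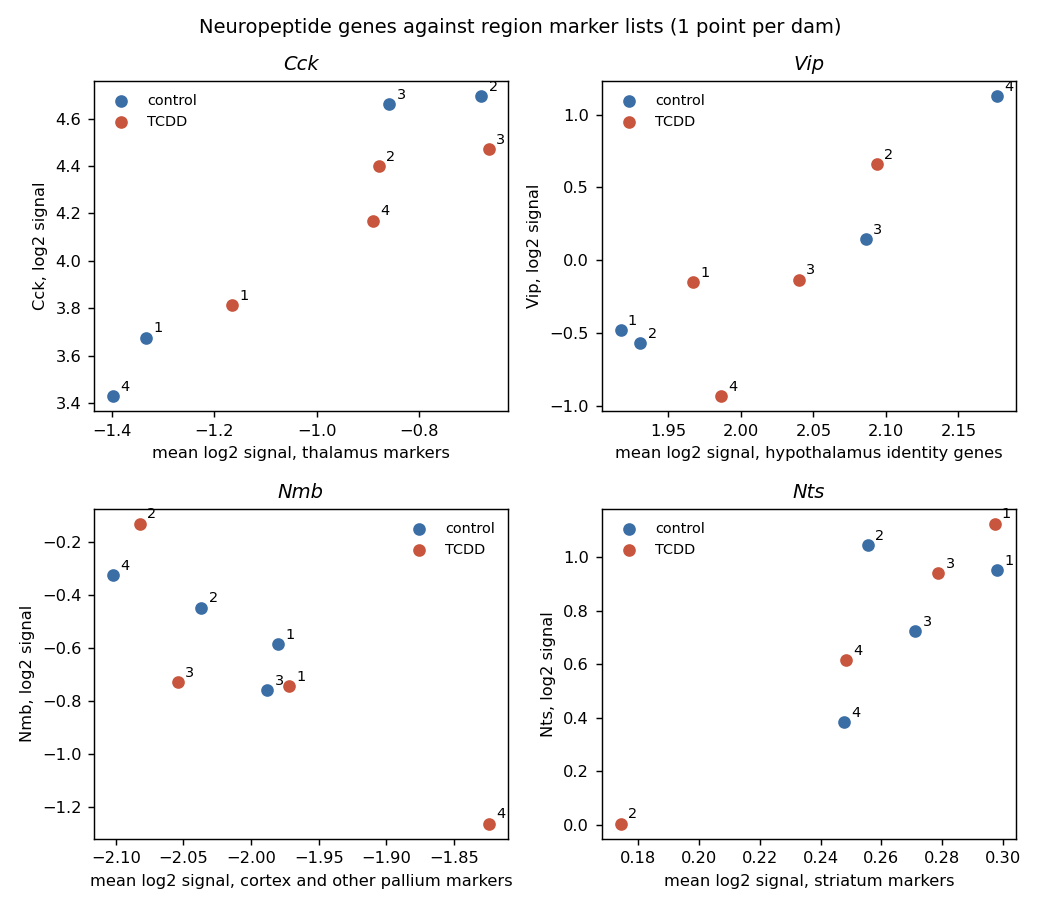
Level of 4 neuropeptide genes (y axis, log2 signal minus the array's 75th percentile) against the mean log2 level of a region's marker list (x axis), with 1 point per dam, numbered within the control (blue) and TCDD (red) groups. Cck rises with the thalamus score over both groups, and the Nmb and Nts relations lean on TCDD dams 4 and 2.

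For each gene, the 3 tested genes with the highest r over the 8 arrays were also listed, as a description of the most like patterns among 16573 others. For Vip they were Tns3 (0.95), Ada (0.95) and Gstt1 (0.94). For Cck they were Bloc1s1 (0.99), Gabrd (0.97), a GABA-A receptor subunit, and Heyl (0.96). Gabrd had -2.49 and -2.63 in control dams 1 and 4, and -0.82 in both control dams 2 and 3, so it separated the control dams as Cck did. For Nts they were Pdk1 (0.99), Upk2 (0.98) and Heatr5b (0.97). Pdk1, a kinase that restrains pyruvate dehydrogenase, had its lowest value, -2.71, in TCDD dam 2, the dam of lowest Nts. Nts was the gene with the most like or opposite patterns: 6.51% of the other genes had an absolute r of at least 0.8 with it, against 0.947% for Tac1.

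Penk was closest to Hmx2 (0.96), a hypothalamic homeobox factor, Ugdh (0.94) and Fezf1 (0.94), a factor of the ventromedial hypothalamus. Gal was closest to Capns1 (0.97), Gas7 (0.95) and Ankrd55 (0.95). Adcyap1 was closest to Sec13 (0.97), Pld3 (0.97) and Pldn (0.96), and Bdnf to Pdia6 (0.97), Obfc1 (0.96) and Utp14a (0.96). Grp was closest to Pccb (0.96), Cuta (0.95) and Det1 (0.95), Nmb to Psenen (0.95), Eif1 (0.94) and Map3k6 (0.93), and Tac1 to Mrps9 (0.98), Nat5 (0.97) and Tmprss9 (0.93).

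No receptor of these peptides passed the test between the groups. Of 22 receptor genes, 17 were measured, and 0 passed an adjusted p of 0.05 by limma, with 1 at an unadjusted p under 0.05, against 11.0% of all genes. The receptors for the bombesin-like peptides, Grpr, Nmbr and Brs3, were not measured, nor were Galr3 and Cckar, so the ligands Grp and Nmb have no measured receptor here. The median log2 fold change of the 17 was 0.01. Oprd1, the delta opioid receptor on which enkephalins act, was that gene, 0.44 log2 units higher in TCDD dams (SE 0.19, limma adjusted p = 0.447). Vipr2, the receptor of VIP on clock cells, had 0.10 (SE 0.08), and Adcyap1r1, the PACAP receptor, had -0.28 (SE 0.17). Ntsr1 had -0.09 (SE 0.12), Galr1 0.01 (SE 0.11), Tacr1 0.14 (SE 0.13), Cckbr -0.02 (SE 0.18) and Ntrk2, which encodes TrkB, -0.05 (SE 0.06). None of these 7 passed the test.

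In the lists of related genes, likewise, none passed the test. All 15 peptide processing and granule genes were measured, and 0 passed an adjusted p of 0.05. Chga, the granule protein chromogranin A, was 0.29 log2 units higher in TCDD dams (SE 0.07, limma adjusted p = 0.195). Of 13 suprachiasmatic nucleus markers 11 were measured and 0 passed. Rorb had 0.24 (limma adjusted p = 0.421) and Syt10 -0.30 (limma adjusted p = 0.336). Of 14 circadian clock genes 12 were measured and 0 passed, with Nr1d2, which encodes the clock repressor REV-ERB beta, at 0.20 (limma adjusted p = 0.365). Of 29 other hypothalamic neuropeptides 25 were measured and 0 passed. Sst, the somatostatin gene, had 0.41 (limma adjusted p = 0.241), Trh 0.27 (0.439) and Nppc -0.22 (0.433).

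The start sites of 8 of the 10 genes have a promoter sequence of 250 bases before and 50 bases after the start in RefSeq (assembly GRCr8); Penk and Cck have none there. The cyclic AMP response element is of interest for these genes, since CREB acts through it on peptide genes, and the AhR binds the xenobiotic response core. The full element TGACGTCA was in 0 of 8 genes, against 1.83% of 33469 promoters. Its shorter core TGACG, searched on both strands, was in 6 of 8: Vip, Grp, Nts, Gal, Tac1 and Bdnf, against 21.2% of all promoters. Bdnf has 6 start sites and the other 7 genes have 1 each, so Bdnf had more chances. Counted by promoter, as the share of all promoters is, 6 of the 13 promoters of these genes held the core. In all 6 genes a core lies before the start. Those of Vip, the gene of widest spread, and of Bdnf, of the closest pair, are shown with 20 bases on each side and the core in capitals.
Vip: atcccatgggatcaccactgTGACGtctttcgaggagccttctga
Bdnf: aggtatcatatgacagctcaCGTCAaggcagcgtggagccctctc
The Vip site begins 97 bases before the start (GRCr8, chr1:44470363-44470407, plus strand) and reads as spelled. The Bdnf site begins 35 bases before one of its starts (GRCr8, chr3:116637803-116637847, plus strand) and is the reverse complement. Adcyap1, which moved with Bdnf, holds no such core in its window. The xenobiotic core GCGTG was in 3 of 8 (Grp, Tac1 and Bdnf), against 29.7% of all promoters, the AP-1 site TGANTCA in 2 (Nts and Bdnf), against 7.33%, and the E-box CACGTG, which clock factors bind, in 3 (Nmb, Tac1 and Bdnf), against 6.42%. Of the 13 promoters, 5, 2 and 3 held these motifs. A match of letters is a description and not a site of binding.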

How the data were processed

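Hypothalamic RNA of 8 dams was hybridised to 1 Agilent array each. Per the file headers, Agilent Feature Extraction (version 10.7.1.1) made the deposited scanner files, which hold linear spot intensity. A second deposited table holds linear intensity in 8 columns with the same sorted values (within 0.1%); it served as an alternative, with its centring unstated. All columns were matched to a sample.

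Spots of a probe were averaged, without the 1377 control spots and outlier-marked spots. The processed signal was taken to log2 and scaled to each array's 75th percentile over 30367 probes. Probes entered if the scanner software had them well above background in every array of 1 group or both (19102 probes), and a gene was its brightest probe, giving 16574 genes. Differences were tested with limma 3.58.1 (R 4.3.3), two-sided, with Benjamini-Hochberg adjustment at 0.05. Correlations used all 40320 orders of the arrays (two-sided exact permutation, Python 3.11.15). In simulated data for TCDD against control over 16574 genes, 85.1% of genes changed by 1 log2 unit and 58.2% of those changed by 0.5 were recovered, with 8 false calls. The 200 changed genes were drawn from all genes tested. These rates are therefore not those of genes with a wide spread, such as Vip, Cck, Nts and Nmb.

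The genes, lists and tests were chosen with earlier results of these data known. All 10 genes are named; of each list at most 4 genes at an unadjusted p under 0.05, with receptors of the ligands and single markers' r added after their values were seen; for each gene the 3 of highest r; and the 5 pairs of largest r. Alternatives were normexp background correction (offset 50), quantile and median scaling, the value table, other filters, the mean of probes, array weights, a trended robust fit, a replicate block and leaving out arrays. Protein sequences and list enrichment were not used here.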

Additional observations from a re-analysis of the deposited data

Results flagged for a closer look

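Of 50 groups of 4 dams checked (12 probes and 13 marker lists in 2 groups), 6 held 1 dam far from the other 3. Chance gives about 1 in 20 for independent groups. These groups are not independent, since they share the same dams and Gal and Tac1 enter with 2 probes each, so the count is a description. The measure is the gap between the far dam and its nearest neighbour as a share of the group's range. TCDD dam 2 was lowest for both Gal probes, with a gap of 0.961 on A_42_P614175 (4.23 against 4.48 to 4.49 in the other TCDD dams) and 0.866 on A_64_P091940. For Adcyap1, TCDD dam 1 was highest, with a gap of 0.904. TCDD dam 2 was highest for the other hypothalamic neuropeptides as a list, with a gap of 0.879. Control dam 4 was lowest for the immediate early genes (0.884) and highest for the red blood cell genes (0.892).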

How the results depend on the processing

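None of the 10 genes passed the adjusted threshold under any of the 19 alternatives, and neither did any gene of the marker lists; the smallest adjusted p of the 10 was 0.283 (limma). The number of all genes called, 3, was 22 with normexp, 0 without the filter, 28 with probes well above background on all 8 arrays, 34 with the trended robust fit, 102 with array weights and 0 to 6 when single arrays were left out; the cause was not tested. With the replicate number as a block it was 0; same-numbered dams' deviations correlated at 0.23, -0.003, -0.05 and 0.10, so the numbers were not taken to pair dams. An alternative added after the data were seen, without both dim arrays, gave 2.

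The log2 fold changes of Vip, Nts, Gal, Penk, Tac1 and Cck turned sign in at least 1 setting, and those of Grp, Nmb, Adcyap1 and Bdnf in none. With array weights Gal had 0.026 and Cck -0.091, with median scaling Penk had -0.013, and with normexp Tac1 had 0.028. Leaving out 1 array moved Vip between -0.46 and 0.16, Nts between -0.26 and 0.12, Gal between -0.12 and 0.021, Penk between -0.029 and 0.064, Tac1 between -0.043 and 0.020 and Cck between -0.13 and 0.29; it also moved Nmb between -0.38 and -0.004, Grp between -0.33 and -0.08 and Bdnf between -0.22 and -0.08. At an unadjusted p under 0.05, 2 of the 10 genes were called without TCDD dam 1 and without both dim arrays (Adcyap1 and Bdnf in each) and with the replicate block (Adcyap1 and Grp). Of all 16574 genes, 1919, 1483 and 2107 were called in these settings. With normexp, with array weights, without control dam 3 and without TCDD dam 2, 1 of the 10 was called. Of all genes, 1122, 2370, 1729 and 1798 were called there. With normexp the r of Nts and Tac1 was -0.12.

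With normexp, quantile scaling, median scaling and the authors' value table, 2 of the 90 gene and list relations passed the adjusted threshold, Cck with thalamus markers (r = 0.94 in each) and Vip with hypothalamus identity genes (r = 0.90, 0.92, 0.97 and 0.92). When single arrays were left out, 0 or 1 of the 90 relations and 0 to 2 of the 45 pairs passed: Nts with striatum markers without control dam 2 (r = 0.96), Cck with thalamus markers without TCDD dam 3 (r = 0.96), Vip with hypothalamus identity genes without TCDD dam 4 (r = 0.94), and the 2 pairs named above without control dam 1. With 4 arrays per group, the interval for Vip still admits a log2 fold change of -1.20.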

Other observations

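The immediate early genes, which neurons switch on within minutes of activity, entered the list scores above, and their difference between the groups is given here. Of 19 genes 16 were measured, 0 passed an adjusted p of 0.05 by limma, and 6 were higher and 2 lower in TCDD dams at an unadjusted p under 0.05, against 11.0% of all genes in either direction. The median log2 fold change was 0.24, against -0.01 over all genes. It was 0.14 without TCDD dam 1, 0.14 without control dam 4 and 0.14 with array weights. Atf3 had 0.50, Egr1 0.38, Btg2 0.36 and Fosl2 -0.33, with limma adjusted p of 0.290, 0.275, 0.270 and 0.375.

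Of 5 genes of red blood cells, 4 were higher with TCDD at an unadjusted p under 0.05 and 0 at an adjusted one (limma), against 11.0% and 0.0181% of all genes in either direction. The score of the list ran from 2.55 to 4.22 in control dams and from 3.42 to 4.49 in TCDD dams. On the log2 scale Alas2 had a difference of 1.47, Hbb-b1 1.07, Hbb 0.88 and Hba-a2 0.67, with limma adjusted p of 0.387, 0.399, 0.344 and 0.439. Among the cortex and pallium markers Emx1 had 0.22 and Camk2a -0.20 (limma adjusted p = 0.167 and 0.346). Of the 6 mammillary region markers, all measured, and of the 8 striatum and 7 thalamus markers measured, 0 were at an unadjusted p under 0.05.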
